A study of Arabidopsis thaliana with 2 samples.

Results

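EARLI1-type genes encode small secreted proteins that join a signal peptide and a proline-rich stretch to a lipid transfer domain held together by conserved cysteines. AZI1 (AT4G12470) and EARLI1 (AT4G12480) are the best known of them in Arabidopsis thaliana. AZI1 is known for its part in azelaic acid-induced priming of systemic defence, and EARLI1 was first found as a transcript induced by aluminium and is also induced by cold. Several members lie side by side as tandem copies. The genes described here are the 6 loci of the tandem cluster from AT4G12470 to AT4G12520 and 4 related loci, ELP (AT1G12090), AT1G62500, AT2G45180 and AT4G22490. These 10 loci were taken by locus number, as hybrid proline-rich genes with a lipid transfer domain. Of them, 5 are among the 13333 genes that had a named probe set of their own on the array. The list was chosen by family and selected on the signals of both arrays and their ratio, so these values describe the genes and support nothing further.

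The data were 2 Affymetrix arrays of total RNA from excised shoots of seedlings aged 14 days, 1 of the transgenic line GFP-TIE1-15 and 1 of Columbia-0 wild type. The labels call GFP-TIE1-15 a GFP-TIE1 transgenic line and name neither the promoter of the transgene nor how many plants were pooled, and it is a single line. TIE1 is known as a protein that recruits TOPLESS corepressors to TCP transcription factors of leaf development. Seedlings of both genotypes grew on the same medium in long days. Values are linear intensities, 1 signal per probe set. The log2 ratio sets GFP-TIE1-15 over wild type after a pseudocount of 50.0 was added to each signal. This shrinks the ratios of dim genes most. A probe set counted as measured when its brighter array reached a signal of 200.02. With 1 array per genotype there was no replicate, no test and no error, and the number of arrays limits the precision of every value. In seedling tissue, fewer cells of a type and less RNA per cell cannot be told apart.

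Of the 10 loci, 5 had a probe set of their own, and all 5 were measured. AT4G12510 and AT4G12520 shared 1 probe set, which was below the brightness minimum on both arrays. AZI1, EARLI1 and ELP had no named probe set and were not analysed here. A gene counted as lower or higher when its log2 ratio reached 1 in size, which is a 2-fold difference. By this size rule, 2 of the 5 measured genes counted as lower in GFP-TIE1-15, none as higher and 3 as neither. Among all 11308 measured probe sets, 2.39% were at least 2-fold lower and 1.20% at least 2-fold higher. Nothing is read from that contrast, since the genes were chosen with these ratios known. The median log2 ratio of the 5 genes was -0.33, against 0.01 over all measured probe sets, and their ratios spread from -2.80 to 0.90.

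**Figure D1:**
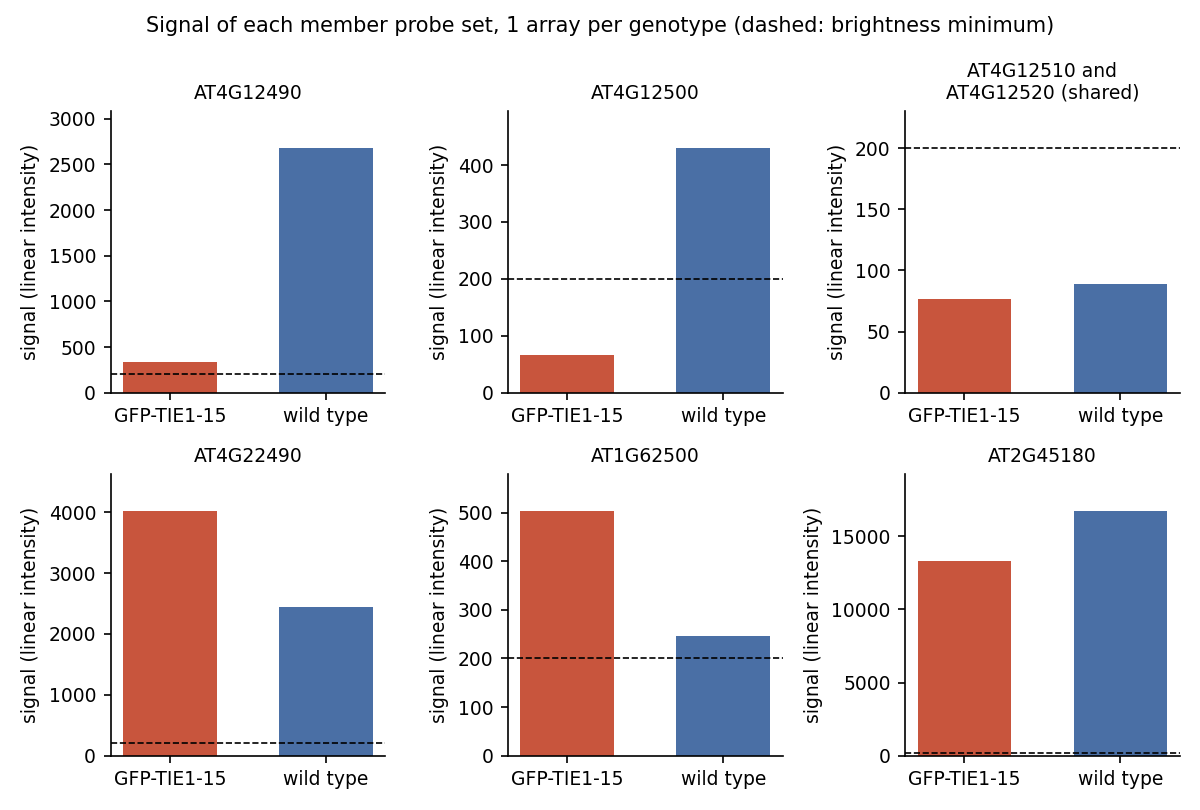
Signal (linear intensity, axis from 0) of each member probe set on the GFP-TIE1-15 array (red, left) and the wild-type array (blue, right), with the brightness minimum of 200.02 dashed. AT4G12490 and AT4G12500 are dimmer in GFP-TIE1-15, AT4G22490 and AT1G62500 are brighter there, and the shared probe set stays under the minimum in both; there are no error bars because each genotype has 1 array.

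Both genes of the tandem cluster with a probe set of their own were lower in GFP-TIE1-15. However, AT4G12500 counted as measured through its wild-type signal alone, which allows only a negative ratio. AT4G12490, which follows EARLI1 in the cluster, had a signal of 340.7 in GFP-TIE1-15, against 2677.8 in wild type. Both arrays were above the brightness minimum, and the signal without a pseudocount was 7.86-fold lower in GFP-TIE1-15. The log2 ratio was -2.80, and only 7 of the 11308 measured probe sets had a lower one. Among the 500 measured probe sets nearest to it in mean log2 signal, 1 had a lower ratio. The median ratio of those 500 was -0.02 and the local SD, a robust spread among genes and not between plants, was 0.31.

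AT4G12500, the next member along the cluster, had a signal of 66.0 in GFP-TIE1-15, against 429.6 in wild type. Its wild-type signal alone reached the brightness minimum, and a gene counted in this way can only have a negative ratio. The log2 ratio was -2.05, with 35 measured probe sets lower. No fold without a pseudocount is given, since the GFP-TIE1-15 signal lies below the minimum. None of the 500 probe sets nearest in signal had a lower ratio, and their local SD was 0.50. The mean log2 signal of AT4G12500 lies below the minimum, where only probe sets brighter on 1 array counted as measured. The filter therefore shaped this rank and this SD. The size of this ratio depended on the pseudocount, at -2.68 when a pseudocount of 1 was used and -1.54 when it was 25% of the trimmed mean signal. Both signals of AT4G12490 were above the minimum, and its ratio moved less, from -2.97 to -2.59 over the other pseudocounts and scalings.

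The shared probe set of AT4G12510 and AT4G12520, the last copies of the cluster, had 76.3 in GFP-TIE1-15 and 88.7 in wild type. Its log2 ratio was -0.14. Both signals lie below the minimum, so a difference in either gene was not detectable here, and the probe set cannot assign signal to one locus or the other. Copies of a tandem cluster can be alike in sequence. Whether the probes of AT4G12490 or AT4G12500 also take up transcripts of neighbouring copies was not tested.

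AT4G22490, a hybrid proline-rich gene outside the cluster, had a ratio above 0 that did not reach the size rule. It had a signal of 4016.9 in GFP-TIE1-15, against 2448.2 in wild type, a signal ratio of 1.64. The log2 ratio of 0.70 was exceeded by 489 measured probe sets, and by 22 of the 500 nearest in signal. The ratio stayed between 0.67 and 0.72 under the other pseudocounts and scalings.

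AT1G62500, another hybrid proline-rich gene, had 503.0 in GFP-TIE1-15 and 247.2 in wild type. Both arrays reached the minimum. Without a pseudocount its signal was 2.03 times that of wild type, while the log2 ratio with the pseudocount was 0.90, just under the size rule. With a pseudocount of 1 it was 1.02 and passed. In all, 202 measured probe sets had a higher ratio, as did 9 of the 500 nearest in signal.

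AT2G45180 was bright on both arrays, with 13296.4 in GFP-TIE1-15 and 16708.8 in wild type. Its log2 ratio was -0.33, short of the size rule, and 1788 measured probe sets had a lower ratio. Among the 500 nearest in signal, 86 were lower, with a median of -0.09 and a local SD of 0.29. LHCB4.1, a light-harvesting protein gene that was bright on the same arrays, was also at -0.33. The other measured leaf markers, RCA and SBPASE, were at -0.35 and -0.53. A link between these ratios and that of AT2G45180 was not tested. After quantile normalization the ratio of AT2G45180 was -0.18. The order of the 5 ratios ran from AT4G12490, AT4G12500 and AT2G45180 up to AT4G22490 and AT1G62500. The ratios of AT4G12490 and AT4G12500 lay 0.76 apart. This gap depended on the pseudocount, at 0.29 with one of 1 and 1.05 with 25% of the trimmed mean. Whether the ratios of AT4G12490 and AT4G12500 differ was not tested. AT4G22490 and AT1G62500 lie closer together than their local SDs of 0.31 and 0.33.

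**Figure D2:**
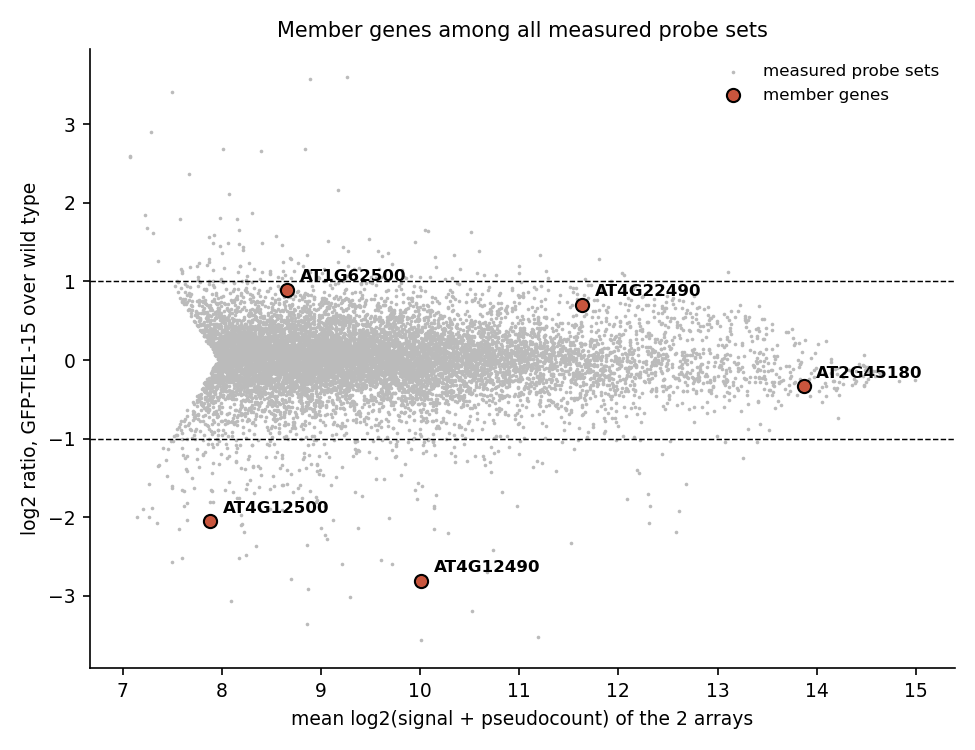
Log2 ratio (GFP-TIE1-15 over wild type) against mean log2(signal + pseudocount) for 11308 measured probe sets (grey) and the 5 measured member genes (red), with the 2-fold size rule dashed. AT4G12490 and AT4G12500 lie at the lower edge of the cloud at -2.80 and -2.05, and the other member genes lie between the dashed lines.

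The measured genes around the cluster, which lay 5 to 14 protein-coding genes away, did not share the low ratio of AT4G12490 and AT4G12500. No nearer gene with a named probe set of its own was measured, so where the low ratio ends cannot be told. Of the 5 nearest named genes on each side, 4 were measured, and none of these passed the size rule as lower in GFP-TIE1-15. SKU5 (AT4G12420), a cell wall glycoprotein gene that acts in directional root growth, had 3088.4 in GFP-TIE1-15 and 2692.3 in wild type, a log2 ratio of 0.19. AT4G12340 was at 0.32 and AT4G12590 at -0.02. AT4G12600 had 3551.7 in GFP-TIE1-15 and 1693.5 in wild type, a ratio of 1.05. The other 6 were below the brightness minimum on both arrays. Of them Hop3 (AT4G12400) had 41.5 in GFP-TIE1-15 and 151.2 in wild type, a ratio of -1.14, and the ratios of the remaining ones were between -0.61 and 0.08. AT4G12530, which directly follows the cluster and was listed as a further hybrid proline-rich gene, had 1.1 in GFP-TIE1-15 and 14.2 in wild type, both far below the minimum. Of 2481 pairs of neighbouring measured genes with at most 1 gene between them, 5 pairs, or 0.202%, were both at least 2-fold lower. AT4G12490 and AT4G12500 were one of them. Nothing is read from this share, since the pair was chosen with its ratios known and AT4G12500 counted as measured through wild type alone.

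Next to AT1G62500 the ratios ran in opposite directions. AT1G62510, the directly following locus and a listed hybrid proline-rich gene, had 540.4 in GFP-TIE1-15, against 1213.4 in wild type, a log2 ratio of -1.10. Both arrays were above the minimum for both genes. Their ratios lay 1.99 apart, and 20 of the 2481 neighbouring pairs, or 0.806%, were at least as far apart. Nothing is read from this share either, since the pair was picked after values were seen. Among the 10 named genes around AT1G62500, 4 were measured. AT1G62480 had the highest ratio of these, with 5538.7 in GFP-TIE1-15 and 2235.3 in wild type, a ratio of 1.29. AT1G62422, which reached the minimum in wild type only, was at -0.35 and AT1G62660 at -0.29.

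Around AT4G22490, only 2 of 10 named neighbours were measured, both with ratios below 0 and 1 of them past the size rule. AT4G22530 had 118.8 in GFP-TIE1-15 and 334.8 in wild type, a ratio of -1.19, and AT4G22560 was at -0.37. Both reached the minimum in wild type only, so their ratios could only be negative. The listed hybrid proline-rich genes AT4G22460 and AT4G22470, which lie before AT4G22490 in the same stretch, were below the minimum. AT4G22470 had 59.2 in GFP-TIE1-15 and 126.7 in wild type. Around AT2G45180, 6 of 10 named neighbours were measured, with ratios from -0.54 for the autophagy gene ATG8E (AT2G45170) to 0.39 for the methionine aminopeptidase gene MAP1A (AT2G45240).

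**Figure D3:**
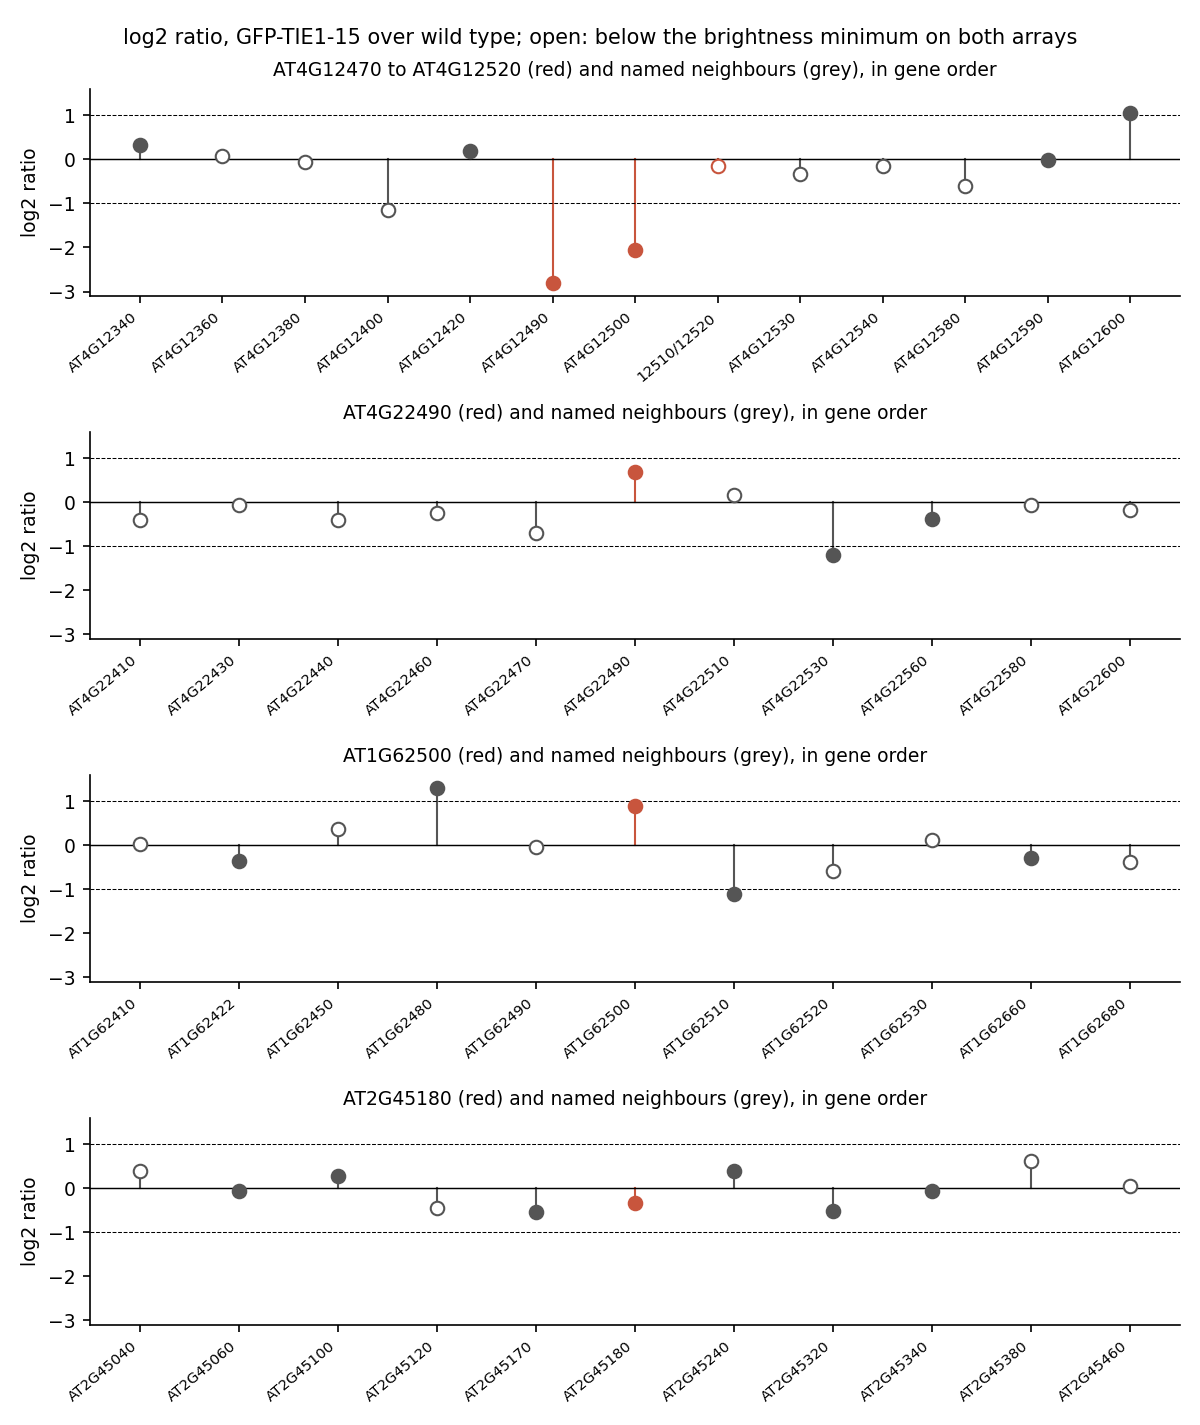
Log2 ratio between GFP-TIE1-15 and wild type for member genes (red) and up to 5 named genes on each side (grey), in gene order and not to scale in distance, with open points below the brightness minimum on both arrays. The ratios of AT4G12490 and AT4G12500 stand at -2.80 and -2.05. Their measured neighbours, 5 or more genes away, lie between -0.02 and 1.05. AT1G62500 at 0.90 stands beside AT1G62510 at -1.10.

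Other hybrid proline-rich genes were mostly dim. Of 20 further listed loci, 8 had a named probe set, and only 2 of these were measured, both of them lower in GFP-TIE1-15 by the size rule. The share over all measured probe sets was 2.39%. Nothing is read from this contrast either, since this list too was chosen with earlier results known. AT2G10940 had 2748.0 in GFP-TIE1-15, against 9057.9 in wild type, a log2 ratio of -1.70 with both arrays far above the minimum. The other was AT1G62510. The 6 below the minimum had signals of at most 126.7 on either array and ratios from -0.69 for AT4G22470 to -0.07 for AT4G22610.

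The DIR1-type genes encode small lipid transfer proteins without the proline-rich stretch, and DIR1 itself acts in systemic resistance. Of 20 listed loci, 15 had a named probe set. Of these, 8 were measured, with 6 lower in GFP-TIE1-15 by the size rule and 2 counted as neither. Among all measured probe sets, 2.39% were lower by the same rule. Nothing is read from this contrast, since the list was chosen with earlier results of these data known. Of the lower genes, 4 of the 6 reached the minimum in wild type only, so their ratios could only be negative. The other lower genes were AT5G55450, with 273.3 in GFP-TIE1-15 and 1828.6 in wild type (-2.54), and AT5G48490, with 396.3 in GFP-TIE1-15 and 1223.9 in wild type (-1.51). AT2G37870 was at -2.19, AT3G53980 at -1.70, AT4G33550 at -1.59 and AT5G05960 at -1.08. AT3G18280 and AT1G48750 were at 0.05 and 0.10. The median was -1.55 over the 8 measured genes and -0.20 over the 15 named ones. The 7 that were not measured had signals of at most 25.3 on either array. Whether the EARLI1-type and DIR1-type genes differ from each other was not tested.

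Genes of azelaic acid signalling and systemic resistance were scarcely represented. Only 2 of 15 listed loci had a named probe set, and both reached the minimum. AT5G52810 had 181.6 in GFP-TIE1-15 and 254.7 in wild type, a log2 ratio of -0.40. SAG101 (AT5G14930), which acts with EDS1 in immune signalling, had 144.4 in GFP-TIE1-15 and 218.6 in wild type, a ratio of -0.47. These signals reached the minimum in wild type alone, so both ratios could only be negative. No locus of the type I lipid transfer, salicylate response, cuticle and structural wall protein lists had a named probe set, which does not show that these genes are silent.

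**Figure D4:**
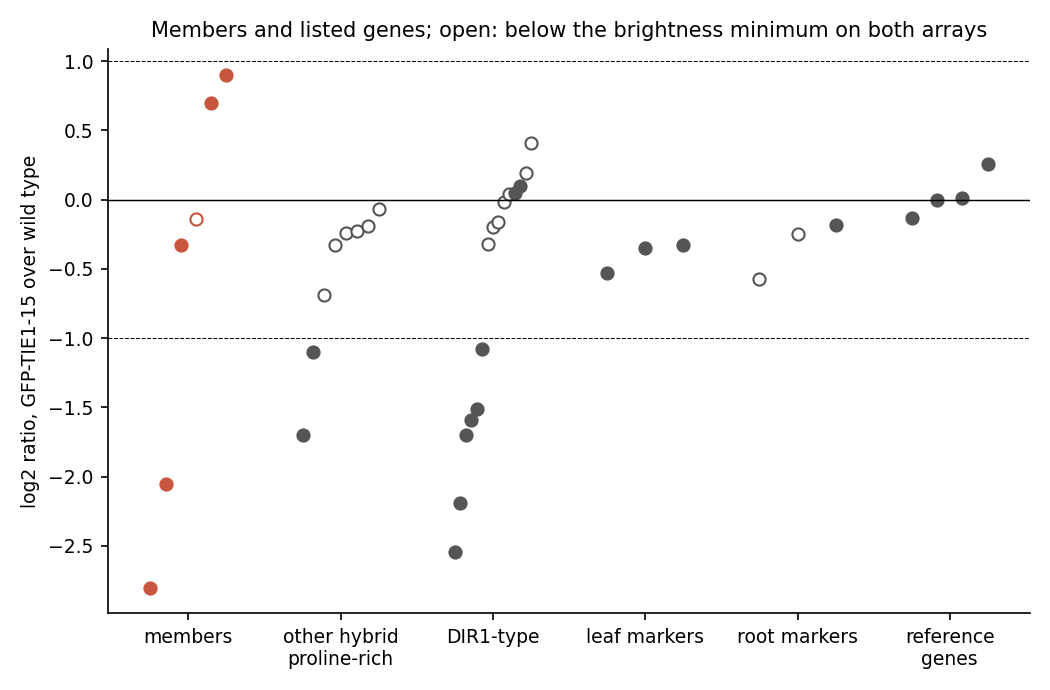
Log2 ratio between GFP-TIE1-15 and wild type for the 6 member probe sets (red) and the named genes of 5 lists (grey), with open points below the brightness minimum on both arrays and the 2-fold size rule dashed. Member genes spread from -2.80 to 0.90, the measured DIR1-type genes from -2.54 to 0.10, and the 4 reference genes from -0.13 to 0.26.

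Markers of the tissue were measured beside these genes. Of 12 listed leaf markers, 3 had a named probe set, and their summed signal was 43252.0 in GFP-TIE1-15 and 55776.0 in wild type. LHCB4.1 was at -0.33, RCA, the Rubisco activase gene, at -0.35 and SBPASE, of the Calvin cycle, at -0.53. Of 14 listed root markers, 3 had a named probe set, with a summed signal of 6002.1 in GFP-TIE1-15 and 6838.3 in wild type. Nearly all of it came from PYK10, at 5954.0 in GFP-TIE1-15 and 6745.9 in wild type, which is also expressed in seedling shoots, and the root hair expansin genes EXPA7 and EXPA18 were below the minimum on both arrays. All 6 named markers had ratios below 0, but EXPA7 (-0.57) and EXPA18 (-0.25) were too dim to be read. PYK10 was only at -0.18. Whether the marker ratios have a part in those of the EARLI1-type genes was not tested. The 4 reference genes had a median log2 ratio of 0.01 and ran from -0.13 to 0.26. The median signal was 173.05 on the GFP-TIE1-15 array and 169.3 on the wild-type array, and 10747 non-control probe sets reached the brightness minimum in GFP-TIE1-15 and 10712 in wild type.

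Each of the 6 member probe sets kept the sign of its ratio under all settings that could be run, but only the scalings could change a sign. A pseudocount added to both signals cannot change which of them is brighter. Only the 5 settings of pseudocount and scaling could move a single ratio, since the brightness minimums and the removal of shared probe sets leave it as it is. For the 5 measured genes, 23 of the 25 values under those settings differed from the reported ratio by less than the local SD. The other 2 were those of AT4G12500 with another pseudocount.

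**Figure D5:**
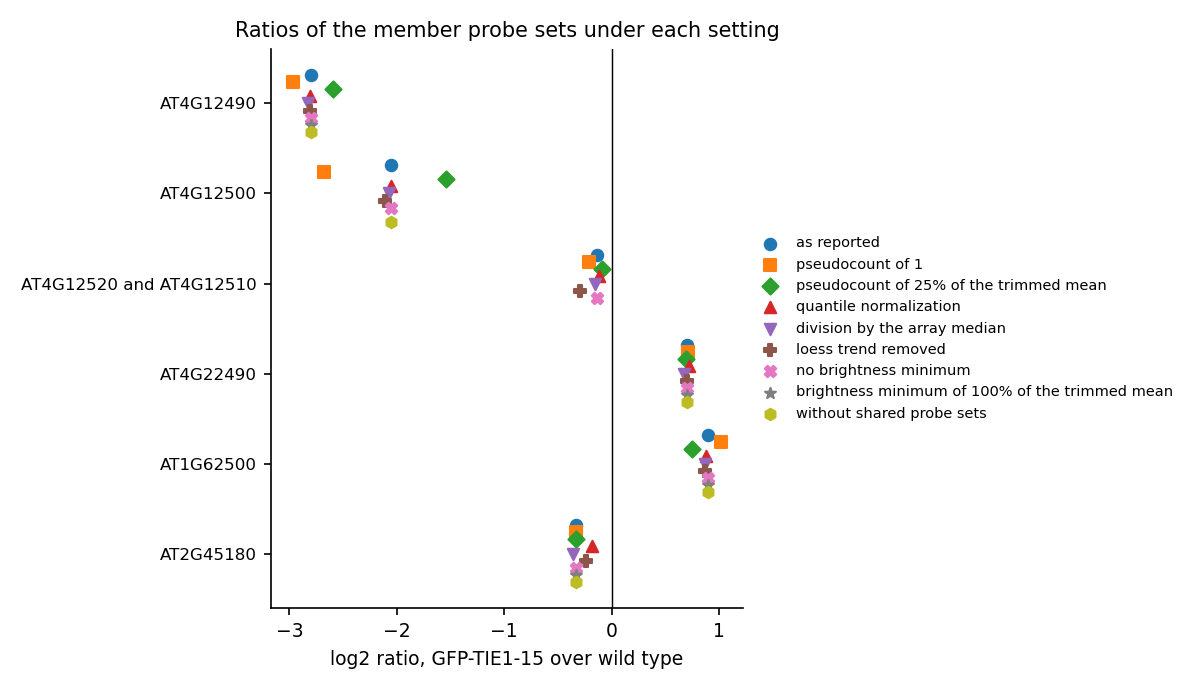
Log2 ratio between GFP-TIE1-15 and wild type for each member probe set as reported (circle) and under the alternative settings (other symbols). AT4G12500 spreads from -2.68 to -1.54 with the pseudocount, whereas AT4G22490 stays between 0.67 and 0.72.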

How the data were processed

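Each of 2 samples, 1 GFP-TIE1-15 and 1 wild type, had 1 array of 22810 probe sets. The deposited intensity values are linear probe set signals made with GCOS 1.0 and MAS5, as named in the submitters' processing notes. The target of any scaling is not given in the sources used here. With the top and bottom 2% of values left out, both arrays had a mean signal of 500.05. The values were therefore used as deposited.

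Gene names came from the platform's annotation, updated through the TAIR10.1 RefSeq gene table, and gene order came from that table. Of them, 13513 had 1 symbol, 503 several and 8730 non-control probe sets were unnamed. The pseudocount of 50.0 is 10% of the trimmed mean and the minimum of 200.02 is 40%. A log2 ratio of at least 1 in size was counted. The local SD is the scaled median absolute deviation over the 500 nearest probe sets. Members, 10 gene lists and the rule for named genes were chosen with earlier results of these data known. The rule named all members, the measured genes of 4 related lists, up to 4 measured genes of every other list and 5 named neighbours on each side of the cluster. The neighbours of the other members, the pairs of neighbouring genes and genes below the minimum were added after values were seen. The computation was tested on simulated arrays. Known changes were placed there only in bright probe sets, so the simulation does not cover dim genes. Alternatives were other pseudocounts, scalings and brightness minimums, and the removal of shared probe sets. A planned search of promoter motifs was not run. Python 3.11.15, numpy 2.4.6, pandas 2.3.3, statsmodels 0.14.6 and matplotlib 3.10.9 were used.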

Additional observations from a re-analysis of the deposited data

How the results depend on the processing

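No paired analysis was possible because there was only 1 array per genotype. With a pseudocount of 1, AT4G12500 was at -2.68, 1 member was at least 2-fold higher (AT1G62500) and 209 of all measured probe sets were higher. With one of 25% of the trimmed mean, AT4G12500 was at -1.54 and 75 probe sets were higher. A minimum raised to 100% of the trimmed mean left 6938 probe sets, 83 higher and 178 lower, against 136 and 270. It removed AT4G12500, so 1 of 4 members was lower and the members' median was 0.19, above 0, in place of -0.33. With no minimum the DIR1-type median was -0.20 over 15 genes. The different number of genes by construction accounts for the shifts under other minimums. The mean of the 5 members was -0.72 in place of their median of -0.33. A larger pseudocount shrinks every ratio by construction. The shared probe set gave no value without shared probe sets. Over all measured probe sets the median ratio stayed from -0.02 to 0.01 whichever scaling was used. No detection calls were used, and signal over background limits what dim genes can show.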
